A study of Mus musculus with 2 samples.

Results

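The transcription factors described here are 9 genes that specify or maintain the hepatocyte lineage: Foxa1, Foxa2, Foxa3, Onecut1, Onecut2, Cebpa, Prox1, Hhex and Gata4. They were chosen by name, as gene probes (not controls) whose gene name in the scanner files is 1 of these 9 symbols. The rule found 11 probes, 2 each for Foxa2 and Onecut1 and 1 for each of the other 7 genes, among 39429 gene probes in all. All 11 were well above background on both arrays, so all 9 genes stand among the 15385 genes measured on both.

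Liver RNA of 1 wild type and 1 Drp1 knockout sample was measured, from male mice of the C57BL/6J strain. Drp1, encoded by Dnm1l, is the dynamin-related GTPase that divides mitochondria, and the series' title places its disruption in the liver. The allele and the Cre driver are not given in the sources used here. The lard-based high-fat diet that both groups share (24% fat, supplying 45% of energy) was started at 4 weeks of age and lasted 24 weeks. The submitters describe sampling after a 17-hour fast or after a fast and 4 hours of refeeding, and which of these applied to either liver is not stated. With 1 array a group there is no replicate check of any difference, no test between the groups was made, and the number of arrays limits the precision.

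FOXA1, FOXA2 and FOXA3 are forkhead proteins that bind closed chromatin early in liver development and help open it for other factors. ONECUT1 (HNF6) and ONECUT2 direct hepatoblasts towards hepatocytes or bile duct cells, C/EBPα drives hepatocyte maturation and metabolic genes, and PROX1 and HHEX are homeobox proteins needed for growth of the liver bud. GATA4 acts in the early liver endoderm and, in the adult organ, is also found in sinusoidal endothelial cells. These factors bind each other's genes and form a network with HNF4α that is known for maintaining the adult hepatocyte state.

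The probes of the 4 genes discussed most below are shown to identify what was hybridised, with the first 30 of 60 bases each, 5′ to 3′, in lower case throughout. Foxa1 lies on chromosome 12 at 58641764 to 58641823, Foxa3 on chromosome 7 at 19599053 to 19599112, and both Foxa2 probes on chromosome 2 at 147868614 to 147868673 and 147868669 to 147868728, all on the minus strand. The Onecut1 probes lie on the plus strand of chromosome 9 at 74710921 to 74710980 and 74737402 to 74737461. All of these are mm9 positions from the scanner files, and whether a probe lies in a coding or an untranslated stretch was not annotated here.
Foxa1: gcatggtttactccttttctttacagccga
Foxa2, probe at position 2012 of its transcript: cgggtctgatttaatttatggtttctgcgt
Foxa2, probe at position 2067: tgttctggctagaatggccagaattccaca
Foxa3: tgaccttttgagtatgtgacagaacacatc
Onecut1, probe at position 1193: cttcggtgaccggcgcgcaggtcagcaatg
Onecut1, probe at position 445 of another transcript model: atgagggaggaagaaccacggactagtacc
No pair among the 11 probes shared a run of more than 8 bases. The probes were compared only with each other and not with the transcripts of the paralogs. Whether a probe also reads the transcript of a paralog was therefore not tested. The Foxa2 probes overlap by 5 bases, while the Onecut1 probes start 26481 bases apart.

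Values are signals of Agilent's processed channel, given as multiples of the 75th percentile of the array's own signals. For the wild type array that percentile was 461, and for the knockout array 722. Differences are on the log2 scale, knockout minus wild type, and folds are derived from them. The error attached to a difference is the one that the scanner software assigns to the spots, about 10% of a bright signal. It describes measuring error on an array and not variation between mice. Among 241 probes spotted several times, the SD between spots was 0.11 (log2) in the wild type and 0.08 in the knockout. The share of probes well above background was 50.5% for the wild type array and 57.1% for the knockout array. Dnm1l itself, read by 1 probe, stood at 2.03 in the wild type and 1.75 in the knockout, a difference of -0.21. Because the deleted exons are not stated in the labels, the value neither checks nor contradicts the genotype.

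Relative to the array's signal as a whole, Onecut1 had the lowest difference of the 9 factors, followed by Foxa1, Onecut2, Foxa2 and Cebpa. Foxa3 was higher in the knockout than in the wild type. In all, 5 of the 9 were at least 1.5-fold lower and 1 was at least 1.5-fold higher, and 3 (Prox1, Hhex and Gata4) differed by less. Across all 15385 genes measured, 13.4% were at least 1.5-fold lower and 8.42% at least 1.5-fold higher. At least 2-fold, 2 of the 9 factors were lower and 0 higher, against 3.64% and 2.91% of all genes. The median of the 9 differences was -0.60, beside -0.11 over all genes. The 8 E1A spike-in probes differed by a median of -0.13 in unscaled signal, while the 75th percentiles differed by 0.65. These directions therefore depend on the scale: with the arrays scaled to these spots the median of all genes moved from -0.11 to 0.67, the median of the factors was 0.18, and Foxa2, Cebpa, Hhex and Gata4 turned positive. Measured from the median of all genes, the factors' median was -0.49, which no scaling by a constant can change. It was -0.35 under quantile normalization, -0.38 under loess, -0.41 with normexp correction, -0.36 in the deposited table and -0.29 without a filter on dim probes. At least 1.5-fold lower were 4 factors under quantile normalization, median centring, loess, normexp correction and the deposited table. Under spike-in scaling 1 factor was.

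**Figure D1:**
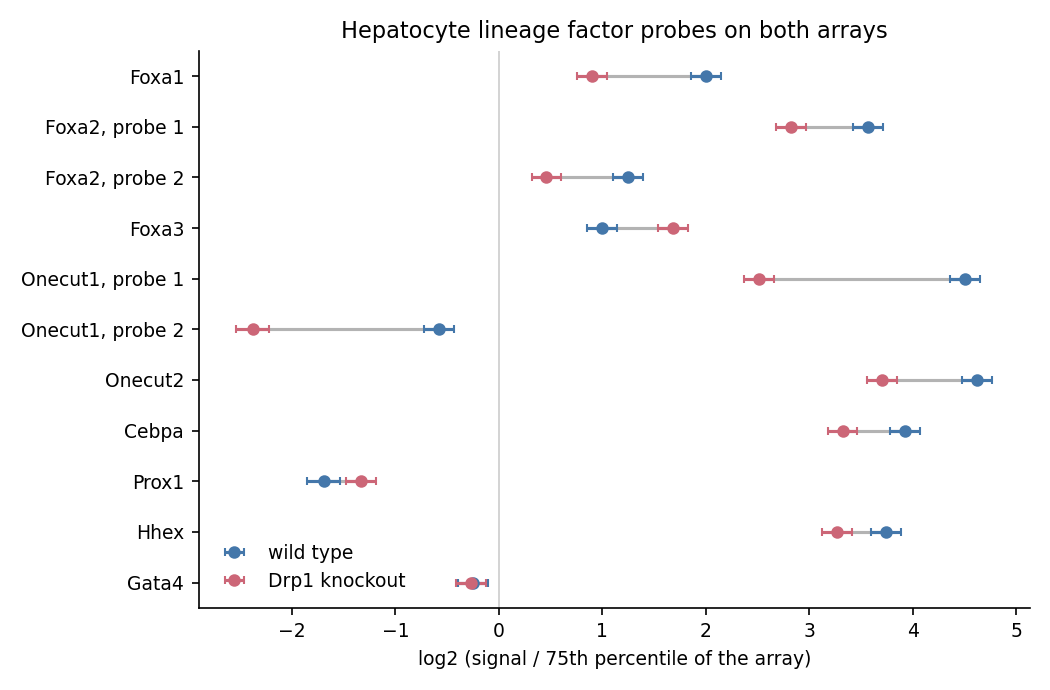
Level of each probe on the wild type and the knockout array, as log2 of the signal over the array's 75th percentile (x axis), with 1 row per probe and bars for the scanner software's error. Foxa2 and Onecut1 have 2 probes each. Both Onecut1 probes lie furthest apart between the arrays, Foxa3 and Prox1 are the factors with the knockout to the right, and the Gata4 points lie 0.03 apart. With spike-in scaling Foxa2, Cebpa, Hhex and Gata4 would also have the knockout to the right.

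Onecut1, which in liver acts in hepatocyte and bile duct differentiation and in glucose and bile acid genes, gave the greatest difference. Its probe at position 1193 read a signal of 309.1 ± 31.5 (software error) in the wild type and 138.6 ± 14.9 in the knockout, or 0.671 and 0.192 times the 75th percentile. The other probe read 10460 ± 1050 and 4109 ± 411, or 22.7 times the percentile in the wild type and 5.69 in the knockout. The wild type array was thus brighter at both probes, with differences of -1.80 and -2.00. Their gap of 0.20 compares with a median gap of 0.24 over the 2772 genes with 2 measured probes. The gene's mean difference was -1.90 ± 0.15, or 3.73-fold lower. Only 0.604% of all measured genes had a lower difference, and among the 1538 genes of similar mean brightness 0.195% did. That brightness is the mean log2 level of 2 probes, at 22.7 and 0.671 in the wild type, so neither probe was itself matched. Onecut1 kept at least a 1.5-fold lower value in all 10 alternative processing settings, between -2.00 and -1.12, the last under spike-in scaling.

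Onecut2, the paralog that overlaps with Onecut1 in bile duct and pancreas development, was also lower, but by less. It read 11330 ± 1130 in the wild type and 9400 ± 940 in the knockout, or 24.6 and 13.0 times the 75th percentile, a difference of -0.92 ± 0.20 (1.89-fold). Under spike-in scaling its difference was -0.14. The gap between the paralogs, which no scaling by a constant can change, was 0.98 ± 0.25, and it ran from 0.88 to 1.14 over the 10 alternatives. The ratio of Onecut2 to Onecut1 was therefore 1.98-fold higher on the knockout array. The third family member, Onecut3, was not well above background on either array.

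The 3 Foxa genes differed in unlike ways, with Foxa1 and Foxa2 lower and Foxa3 higher on the percentile scale (Foxa2 was at 0.01 under spike-in scaling). Foxa1 read a signal of 1837 ± 184 in the wild type and 1345 ± 135 in the knockout, which is 3.99 and 1.86 times the 75th percentile. That makes Foxa1 2.14-fold lower (-1.10 ± 0.20), with 2.73% of all measured genes lower still. Foxa1 also stayed below 0 under spike-in scaling, at -0.32, which is less than a 1.5-fold difference.

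Foxa2, which in the adult liver regulates genes of fasting metabolism and bile acid handling, was lower at both probes on the percentile scale. The probe at position 2012 read 5477 ± 548 in the wild type and 5084 ± 508 in the knockout, or 11.9 and 7.04 times the 75th percentile. The probe at position 2067 read 1097 ± 110 and 993.8 ± 99.5, or 2.38 and 1.38 times that percentile. Their differences, -0.76 and -0.79, are 0.03 apart, although the probes overlap by only 5 bases. The gene was 1.71-fold lower (-0.77 ± 0.14), but its unscaled signals differed by only -0.11 and -0.14 and spike-in scaling put it at 0.01. The signal itself was thus nearly the same on both arrays, while that of most genes was higher on the knockout array. Genes of like brightness had a median difference of -0.14 on the percentile scale.

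Foxa3, which in liver is known for keeping up glucose transporter expression during fasting, differed in the other direction. Its signal was 919.2 ± 92.1 in the wild type and 2316 ± 232 in the knockout, or 2.00 and 3.21 times the 75th percentile. The knockout array was the brighter before any scaling as well, with an unscaled difference of 1.33. On the percentile scale Foxa3 was 1.61-fold higher (0.69 ± 0.20), above 93.5% of all measured genes and 95.7% of those of like brightness. It was at least 1.5-fold higher in all 10 alternative settings, at 0.68 to 1.46. Those that only select probes or spots return the same 0.69 for its 1 probe.

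Set against its paralogs on the same arrays, Foxa3 was 3.44-fold higher than Foxa1 (difference of differences 1.78 ± 0.28) and 2.75-fold higher than Foxa2 (1.46 ± 0.24) in the knockout relative to the wild type. These contrasts were 1.69 to 1.78 and 1.38 to 1.46 over the 10 alternatives. They show unequal differences of the 3 genes between the wild type and the knockout array, and do not say which gene changed. Foxa1 and Foxa2 differed from each other by 0.32 ± 0.24.

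Cebpa, the gene of C/EBPα, which activates gluconeogenic, urea cycle and lipogenic genes in hepatocytes, lay at the edge of the 1.5-fold limit. Its probe lies on the plus strand of chromosome 7 at 35906517 to 35906576 (mm9, as for those below). It stood at 15.1 times the 75th percentile in the wild type and 9.96 in the knockout, from signals of 6949 ± 695 and 7190 ± 719. The signals overlap within their errors, and the lower relative level (-0.60 ± 0.20, 1.51-fold) comes with the higher percentile of the knockout array. Cebpa passed 1.5-fold in 4 of 10 alternatives, those that only select probes or spots and so leave its 1 probe at -0.60. It fell short in all the others. Cebpa was at -0.38 under quantile normalization, loess and the deposited table, -0.49 with median centring, -0.53 with normexp correction and 0.18 under spike-in scaling.

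Hhex, a homeobox gene needed for the outgrowth of the liver bud, was just outside that limit. Its probe lies on the plus strand of chromosome 19 at 37514969 to 37515028. It read 6176 ± 618 in the wild type and 6956 ± 696 in the knockout, or 13.4 and 9.64 times the 75th percentile, a difference of -0.48 ± 0.20 (1.39-fold lower), and 0.30 under spike-in scaling. The median of genes of like brightness was -0.22, and 20.0% of them had a lower difference.

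Prox1, whose protein restrains HNF4α and the nuclear receptor LRH-1 in hepatocytes, was dim on both arrays, at a probe on the minus strand of chromosome 1 at 191945785 to 191945844. It read 142.4 ± 15.7 in the wild type and 288.1 ± 29.4 in the knockout, or 0.309 and 0.399 times the 75th percentile. Its difference of 0.37 ± 0.22 (1.29-fold higher) ranged from 0.16 with normexp background correction to 1.15 with spike-in scaling, and was above 0 in all 10 alternatives. Gata4, read on the minus strand of chromosome 14 at 63817858 to 63817917, had signals of 388.0 ± 39.2 in the wild type and 597.2 ± 59.9 in the knockout. These are 0.842 and 0.827 times the 75th percentile, a difference of -0.03 ± 0.21. Neither passed 1.5-fold on the percentile scale, and both did under spike-in scaling, with Gata4 at 0.75.

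**Figure D2:**
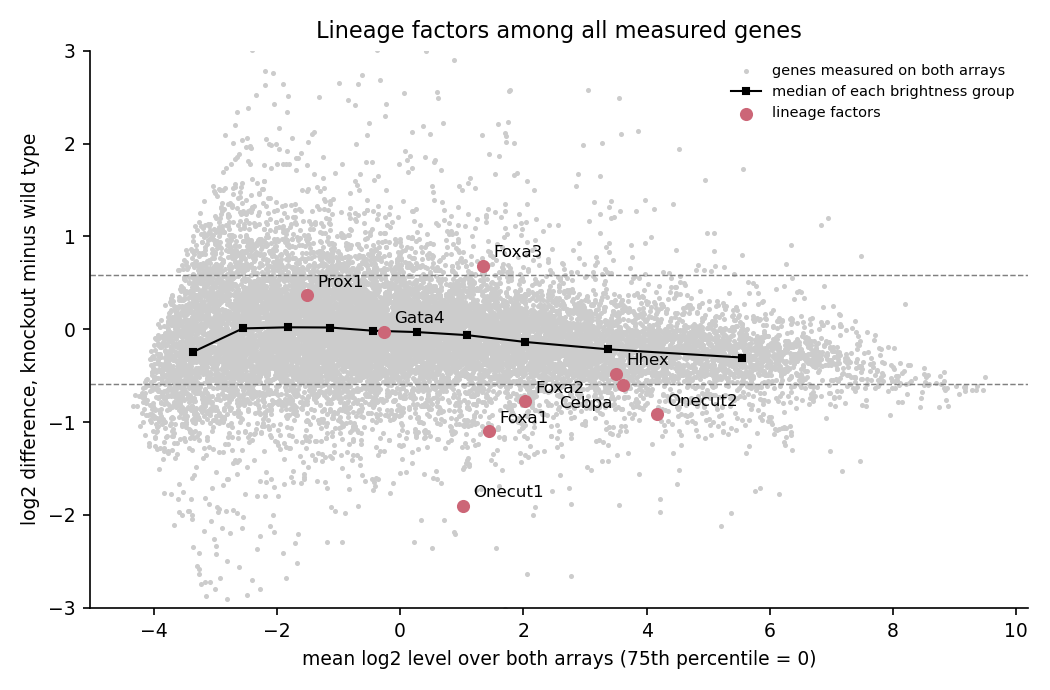
Log2 difference, knockout minus wild type (y axis), against the mean log2 level over both arrays (x axis) for all genes measured on both, with the 9 lineage factors in red, the medians of 10 brightness groups in black and dashed lines at 1.5-fold. Onecut1 and Foxa1 lie lowest and Foxa3 highest of the factors. The y axis ends at 3 in each direction, which leaves out 37 genes and none of the 9. Under spike-in scaling every point would lie 0.78 higher, with Foxa2, Cebpa, Hhex and Gata4 above 0.

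All measured genes were put into 10 groups by brightness, numbered from the dimmest, and the 5 lower factors fall in groups 7 to 9, whose medians ran from -0.22 to -0.06. Subtracting the median of the own group left Onecut1 at -1.84, Foxa1 at -1.03, Onecut2 at -0.70, Foxa2 at -0.64 and Cebpa at -0.38, with Foxa3 at 0.75, Prox1 at 0.35, Hhex at -0.26 and Gata4 at -0.01. In those groups, 10.1% to 12.7% of genes were at least 1.5-fold lower. The order of the factors was therefore the same as before. Onecut1 and Foxa2 were grouped by the mean level of 2 probes of unlike brightness, so their group need not match either probe.

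**Figure D3:**
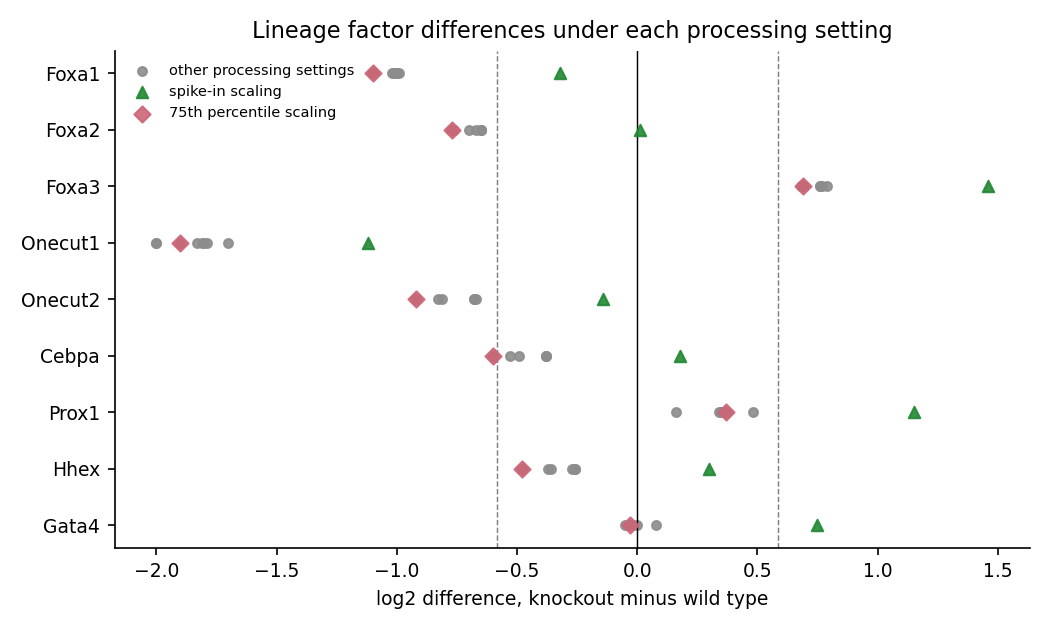
Log2 difference, knockout minus wild type (x axis), of each lineage factor (rows) under 75th percentile scaling (red diamonds), 9 other settings (grey circles) and spike-in scaling (green triangles), with dashed lines at 1.5-fold. Onecut1 stays at least 1.5-fold lower and Foxa3 at least 1.5-fold higher throughout. Spike-in scaling moves all 9 to the right by 0.78, and Foxa2, Cebpa, Hhex and Gata4 then lie above 0.

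Other transcription factors of the hepatocyte network, a list of 28 genes, lay on both sides of the median of all genes. Of 24 measured on both arrays, 7 were at least 1.5-fold lower and 4 at least 1.5-fold higher, with a median of -0.35 (0.43 under spike-in scaling). Among the central members that the factors above cooperate with, Hnf4a differed by -0.32, Nr5a2 (LRH-1) by -0.34 and Nr1h4, the bile acid receptor FXR, by -0.29, each less than 1.5-fold. The Nr5a2 value is the mean of 2 probes that disagree, at -0.66 and -0.02. The lower genes were led by Ppara, the fatty acid receptor of fasting, at 2.18-fold and the transcriptional repressor Bcl6 at 2.06-fold. Nfia, Nr1i3 (CAR), Sall4, Zbtb20 and Tcf7l2 followed, at 1.65-fold to 1.86-fold. The 2 probes of Nfia (-1.13 and -0.66) and of Tcf7l2 (-0.94 and -0.50) differed in size. The higher genes included Cebpd at 1.82-fold, Atf5 at 1.73-fold and Gata6 at 1.54-fold. Of the 9 lineage factors, Onecut1 alone had a lower difference than Ppara.

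**Figure D4:**
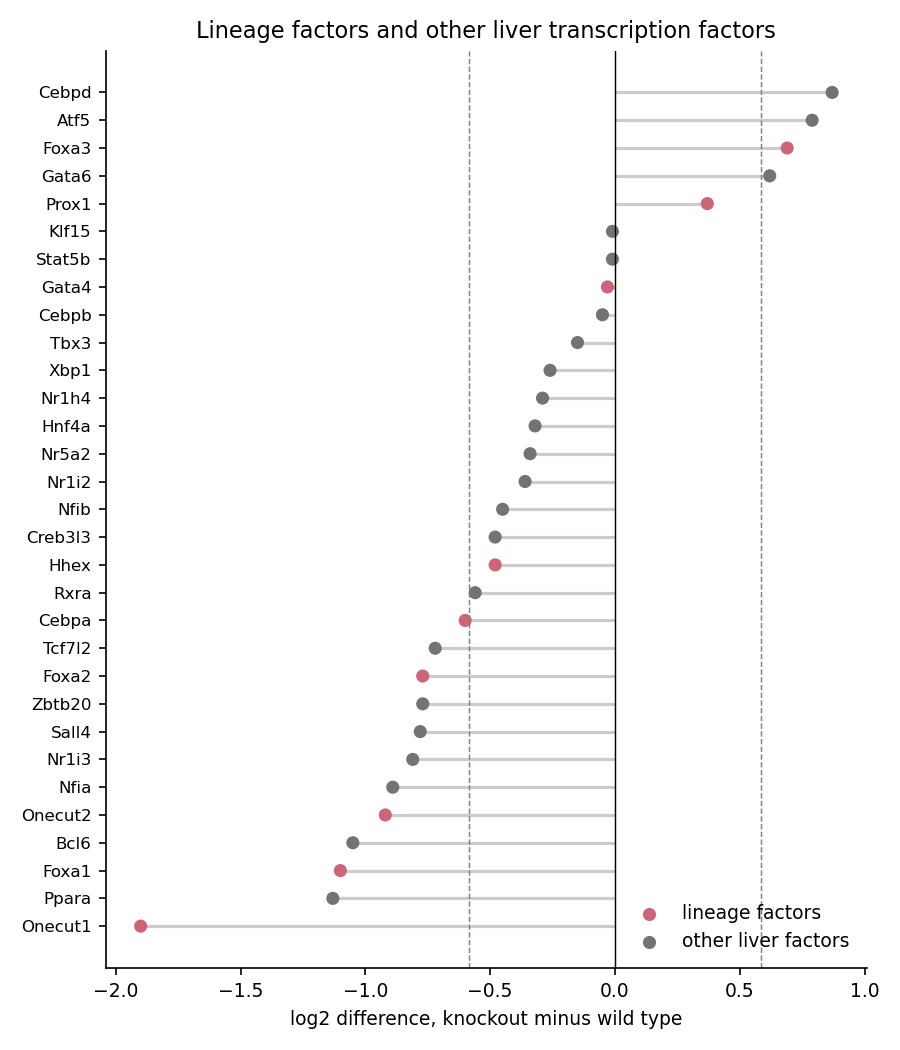
Log2 difference, knockout minus wild type (x axis), of the 9 lineage factors (red) and 22 of the other liver transcription factors (grey), in order of the difference, with dashed lines at 1.5-fold. The 9 lie from -1.90 (Onecut1) to 0.69 (Foxa3), beside -1.13 (Ppara) to 0.87 (Cebpd) for the others. Under spike-in scaling all points would lie 0.78 higher and Foxa2, Cebpa, Hhex and Gata4 above 0.

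Relatives of the 9, by family or by name, were read for comparison. These and all values that follow are on the percentile scale, and spike-in scaling raises each by 0.78, so that genes and lists lower by less than that shift then lie above 0. All 6 C/EBP relatives listed (Cebpz by name only) were measured, with 3 at least 1.5-fold higher and 1 lower. Ddit3, the stress-induced member CHOP, was 4.26-fold higher, from 1.22 to 5.20 times the 75th percentile, and Cebpd and Cebpg were higher by 1.82-fold and 1.59-fold. The lower relative was Cebpe, at 1.61-fold, and Cebpb differed by -0.05, beside -0.60 for Cebpa (0.18 under spike-in scaling). Of 40 other forkhead genes 13 were measured, with 3 lower and 2 higher by 1.5-fold and a median of -0.16. Foxo1, which mediates insulin's control of gluconeogenesis, was 1.59-fold lower, Foxk1 1.86-fold lower and Foxn2 2.87-fold higher. Foxn2 was dim, at 0.0895 times the 75th percentile in the wild type and 0.257 in the knockout. Of 10 GATA-related genes 6 were measured, and Gata6 was past 1.5-fold. Of the 6 cut and prospero relatives, only Cux1 was measured, at 1.81-fold lower.

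Genes known as targets of these factors lay in both directions within most lists. Of 12 listed targets of the FOXA proteins, 3 were at least 1.5-fold higher and 2 lower, with a median of 0.33. Transthyretin (Ttr) was 1.55-fold and Serpina1a 1.53-fold lower, while Igfbp1 was 12.8-fold, the fetal protein Afp 3.88-fold (0.0944 and 0.367 times the 75th percentile, near background) and Tat 2.06-fold higher. Of 9 listed targets of Onecut1, 3 were lower and 1 higher, with a median of -0.28. Ttr and Foxa2 were among the lower ones, as given above (Foxa2 at 0.01 under spike-in scaling), and Cyp7a1 differed by -0.17. Of 13 listed targets of C/EBPα, 2 were lower, 2 higher and 9 between, with a median of -0.07. Cps1 of the urea cycle was 1.52-fold higher, while Otc, Ass1 and Arg1 of the same cycle differed by -0.07 to 0.05. The Otc value is the mean of 2 probes, at -0.20 and 0.20. Of 7 listed targets of PROX1, HHEX or GATA4, 6 were measured, and Nr0b2 (SHP) at 1.62-fold and Hamp, the iron hormone hepcidin, at 1.87-fold were higher. Igfbp1 and Tat respond to fasting, and the part of feeding state in these values was not tested.

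Hepatocyte markers, read to check the labelled tissue, were well above background on both arrays for all 17 of those found on the array (18 listed). Of these, 8 were at least 1.5-fold lower and 2 (Tat and Cps1) higher, with a median of -0.58 (above 0 under spike-in scaling) and a summed level of 5420 times the 75th percentile in the wild type and 3690 in the knockout. Alb differed by -0.52. The lineage factors' median was -0.60. Onecut1, Foxa1, Onecut2 and Foxa2 lie below the lowest marker, at -0.72, and Foxa3 lies between the median marker and the highest, Tat, at 1.04. In bulk RNA, fewer hepatocytes and less RNA per hepatocyte cannot be told apart, and whether either differed was not tested. The direction of the markers depends on the scale. Among all genes, the medians of brightness groups 7, 8 and 9 (of 10, from the dimmest) were -0.06, -0.14 and -0.22. The part of brightness in the marker values was not tested.

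Several of the 9 genes are also expressed outside hepatocytes, so markers of other cells were read beside them. For bile duct cells, which express Onecut1, Foxa1 and Foxa2, 5 of 10 markers were measured and 4 were at least 1.5-fold higher, with summed levels of 0.789 in the wild type and 1.69 in the knockout. Krt19 was at 0.0929 and 0.108, and Epcam was not well above background on either array. Cftr (0.0814 and 0.0296) and Cldn4 (0.0341 and 0.0182) were well above background only in the wild type and Krt7 (0.0323 and 0.0397) only in the knockout, so the list did not lie in 1 direction. For sinusoidal endothelium, which expresses Gata4 and Hhex, all 12 markers were measured, 2 were higher and 0 lower, and the sums were 54.6 and 51.7. For lymphatic endothelium, which expresses Prox1, 6 of the 7 on the array were measured, 2 were lower and 1, Lyve1, was higher, with sums of 3.14 and 2.50. For stellate cells, which express Gata4, all 12 were measured, 4 were higher and 1 lower, with sums of 61.2 and 84.8.

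Myeloid cells express Cebpa. Of 10 macrophage markers 9 were measured, 3 were higher and 0 lower, with sums of 73.2 in the wild type and 93.0 in the knockout. Of 8 neutrophil markers 5 were measured, 4 were lower and 0 higher, with sums of 92.8 and 65.8. Csf3r, the measured marker that did not pass 1.5-fold, gave 88.4 and 63.8 of these, and Ngp, Ltf and Mmp8 were not well above background on either array. Fat cells express Cebpa too, and 3 of 8 of their markers were measured. Cfd was 33.6-fold and Cidea 8.67-fold lower, Fabp4 differed by 0.01, and Adipoq, Lep and Plin1 were not well above background on either array. The part of bile duct, endothelial, stellate, myeloid or fat cells in the values of the lineage factors was not tested.

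Tissue from outside the liver was looked for as well. Of 10 skeletal muscle markers, 7 passed the background limit in the wild type alone, with sums of 10.6 in the wild type and 0.820 in the knockout. Pancreas, which expresses Onecut1, Foxa2 and Prox1, had 8 of 12 markers not well above background on either array, with sums of 1.49 and 0.863. Ctrb1 and Ins2, the 2 measured on both, were 1.84-fold and 1.60-fold lower, and Pdx1, Cpa1 and Pnlip were among the 8. Cela2a (0.181 in the wild type and 0.0243 in the knockout) was well above background only in the wild type. Cela1 (0.0536 and 0.0823) was so only in the knockout. Of 8 gut epithelium markers 6 were not well above background on either array, among them Cdx1, Cdx2 and Vil1, and Fabp2 gave nearly all of the sums of 96.7 and 67.1. The part of muscle or pancreas tissue in the values of the lineage factors was not tested.

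Probes within 60 kb of those of the lineage factors were read for the neighbourhood of each gene, a window chosen after the values were seen. It was searched for 8 of the 9 genes and held 20 probes near 7 of them, of which 14 were measured. Of these, 4 were at least 1.5-fold lower and 0 higher, with a median of -0.24, where 13.4% of all genes were at least 1.5-fold lower. Near Foxa2, the RIKEN cDNA 9030622O22 gene was 1.53-fold lower (1.11 to 0.723 times the 75th percentile), close to the 1.71-fold of Foxa2 itself. Near Foxa3, the 5 measured neighbours had differences below 0, with Irf2bp1 at -0.03, Sympk at -0.10, Mypop at -0.28, Nova2 at -0.41 and a predicted gene at -0.71. The difference at Foxa3, 0.69, lay above all 5. Near Hhex, 1700122C19Rik was 1.91-fold lower, near Foxa1 the dim Gm2568 was 1.63-fold lower, and near Gata4 the lysosomal protease gene Ctsb differed by -0.11.

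Start regions were read because these factors are known to bind each other's genes. RefSeq windows (GRCm38.p6) matched 7 of the 9 genes, with 10 windows in all, and the 250 bases before each start were searched on both strands. The motifs were the forkhead core TGTTTAC, the Onecut core ATTGAT, the C/EBP motif TTGCNNAA, the GATA core AGATAA, the C/EBP-ATF element TGATGNAA and the STAT5 motif TTCNNNGAA. They occur in 3.17%, 6.72%, 9.56%, 9.99%, 3.45% and 7.02% of all 32851 such windows, in that order. In the 10 windows 3 matches were found, and 7 windows held none. Foxa1 had a forkhead core 141 bases before its start, shown with 30 bases at chr12:57546235-57546264, minus strand. Foxa2 had an Onecut core 213 bases before the most upstream of its 3 starts, in the window chr2:148046970-148047219, minus strand, and a GATA core 183 bases before another start. The window of Onecut1, chr9:74861671-74861920, plus strand, held no match and is shown because that gene differed most; its GC content of 71.6% compares with a median of 52.4% over all windows. Capitals mark the matches.
Foxa1: ttatactgctttGTAAACAaagtgagggcc
Foxa2: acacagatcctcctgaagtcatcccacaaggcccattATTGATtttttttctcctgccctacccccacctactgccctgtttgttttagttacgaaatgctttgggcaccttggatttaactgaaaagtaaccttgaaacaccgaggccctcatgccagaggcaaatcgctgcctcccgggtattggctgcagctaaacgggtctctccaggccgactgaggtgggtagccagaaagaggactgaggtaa
Onecut1: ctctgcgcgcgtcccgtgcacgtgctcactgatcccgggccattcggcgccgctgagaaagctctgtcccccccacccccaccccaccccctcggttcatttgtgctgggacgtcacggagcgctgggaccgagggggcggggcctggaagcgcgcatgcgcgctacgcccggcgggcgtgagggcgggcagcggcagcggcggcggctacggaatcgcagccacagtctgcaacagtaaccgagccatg
A match is a description of the letters, and the absence of a match says only that these letters are not in this window. No test relates these windows to the differences.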

How the data were processed

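Liver RNA of 1 wild type and 1 Drp1 knockout sample was labelled with Cy3 and hybridised to 1-colour Agilent mouse arrays, per the labels' protocols. The authors deposited Feature Extraction intensities (version 9.5.1.1 per the submitters' processing notes, module version 10.7.1.1 per the file headers). The processed signal is background-subtracted and detrended, per the file headers. The deposited value table holds linear intensities (median 45.93 in both columns, lowest 5.569) that had been put on a common distribution by an unstated method, and it served as an alternative. Each column correlated with its own array's log2 signals at r = 1.0000 over 19470 probes.

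Control spots (43020 of 44397 spots were gene spots) and spots marked as outliers (183 and 190) were left out, and 0 gene spots were saturated. Signals were divided by the array's 75th percentile over gene spots and log2-transformed, and spots of a probe and probes of a gene were averaged. A probe counted as measured where at least 50% of its spots were well above background. Other genes were named through RefSeq (GRCm38.p6). With 1 array per group no test was made, and counts use a 1.5-fold limit. Alternatives were quantile, median, loess (span 0.3) and spike-in scaling (8 E1A probes), normexp (limma 3.58.1, R 4.3.3, offset 50), no filter and a stricter filter (25th percentile), the brightest probe, all spots, and the deposited table. The gene averages were tested on simulated data. The 9 genes and the lists were chosen with earlier results of these data known. All 9 genes are named. Of the lists, genes past 1.5-fold or furthest from 0 could be named, but not all of them are. A few others were named after their values were seen. The position of the Onecut2 probe and the values of some listed genes are not reported here.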

Additional observations from a re-analysis of the deposited data

How the results depend on the processing

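Across 10 alternatives, Onecut1 stayed at least 1.5-fold lower and Foxa3 at least 1.5-fold higher in all. Foxa1, Foxa2 and Onecut2 stayed at least 1.5-fold lower in 9, all but spike-in scaling. For the 7 factors read by 1 probe, both filter settings, the brightest probe and all spots returned the main value. Those alternatives are therefore no check of these factors. The deposited table gave nearly the values of quantile normalization, with Foxa3 at 0.76 in both. The factors' median of -0.60 moved to -0.38 under quantile normalization, loess normalization and the deposited value table alike. The count of factors at least 1.5-fold lower went from 5 to 4 under these, median centring and normexp correction. Spike-in scaling gave a median of 0.18, 1 factor lower and 3 higher (Foxa3, Prox1 and Gata4), with Foxa2 at 0.01 and Cebpa at 0.18, and a median of 0.43 for the other liver factors. It raises every gene by 0.78 by construction, so all genes at least 1.5-fold higher went from 1296 to 8938 and those lower from 2060 to 209 (97.7% higher, against 38.6%). Centring on the median probe gave 53.9% higher and loess 50.8%. Without a filter on dim probes 11307 genes were lower and 3164 higher, with 21.9% higher, and normexp correction gave 1465 and 658; the stricter filter left 1269 and 655. No paired analysis was possible because each group held 1 array. Signal over background limits Prox1 and the dimmer Onecut1 probe most. The cause of the knockout array's higher signal was not tested.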
